A study of Homo sapiens with 12 samples.

Results

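The genes described here make cholesterol and fatty acids, control that synthesis, or move sterols within and out of the cell. They are 35 genes given by name, of 28087 genes in the count table, and each was represented by its RefSeq transcript with the most counts over the 12 libraries. By role, 7 belong to the mevalonate arm, 11 to the sterol arm, 5 to the control of the sterol regulatory element binding proteins (SREBPs), 4 to sterol movement and the targets of the liver X receptors, and 8 to fatty acid synthesis. All 35 passed the filter on low counts.

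RNA sequencing was done on MV3, an established human melanoma cell line, with 4 groups of 3 libraries. All cells were in 12-well plates in RPMI medium, whose serum had been cut to 1% and depleted of extracellular vesicles (EVs) 3 h earlier, and were then exposed for 24 h. The Ctrl group received PBS. The M0 EV, M1 EV and M2 EV groups each received 1E10 particles per well of vesicles made by M0, M1 or M2 macrophages, for which THP-1 cells (a human monocytic leukaemia line) had been polarized for 48 h. The labels name no polarizing agent and do not say whether the replicates were separate cultures or vesicle preparations, so p-values measure the spread between these libraries. MV3 is 1 cell line, and vesicles of 1 macrophage line were used.

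Gene totals were 9694683 to 14379483 counts per library. The melanocytic markers TYR, DCT and S100B were at 0 in every library and SOX10 had 2 counts over the 12 libraries, whereas AXL, a marker of undifferentiated melanoma, stood at 1311 ± 13.2 CPM (counts scaled to the library total; SD, n = 3) in Ctrl. Summed in Ctrl, 7 melanocytic markers, 1 of them tested, held 1.44 to 1.80 CPM. The 6 markers of undifferentiated melanoma, 5 of them tested, held 2830.3 to 2855.2 CPM. In M1 EV against Ctrl 2 of those 5 rose and 2 fell. Of 20 macrophage markers, 3 were tested, and 6 were at 0 in every library, C1QA, C1QB, CD163, MS4A7 and TYROBP among them. The summed level of the 20 was 57.4 to 65.1 CPM in Ctrl, 60.9 to 62.8 in M0 EV, 72.3 to 74.2 in M1 EV and 62.3 to 65.5 in M2 EV, most of it from CD68. In M1 EV against Ctrl 2 of the 3 tested markers rose (66.7%, against 14.3% of all tested genes). CTSS, a lysosomal protease, stood at 0.805 ± 0.274 CPM in Ctrl and 3.25 ± 0.951 CPM in M1 EV (SD, n = 3), a rise of 1.98 ± 0.284 on the log2 scale (edgeR adjusted p = 7.25e-07). CD68 went from 56.7 ± 3.68 to 66.9 ± 0.732 CPM (0.24 ± 0.0496, adjusted p = 2.44e-04). Both were also higher in M1 EV than in M0 EV (2.21 and 0.21) and M2 EV (1.82 and 0.16). The part of these markers in the results below was not tested.

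Cholesterol is built from acetyl-CoA through mevalonate and squalene, and the same precursor feeds fatty acid synthesis. When sterol in the endoplasmic reticulum is low, the escort protein SCAP carries SREBPs to the Golgi, where cleavage frees a transcription factor that raises most genes of both pathways. When sterol is plentiful, INSIG proteins hold SCAP back, and oxysterols activate liver X receptors, which raise exporters such as ABCA1. SREBPs act at promoters together with NF-Y, which binds the CCAAT box, and Sp1, which binds the GC box.

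The start-site windows of 6 members are printed because they show how motifs of this regulatory system are spread over genes that were lower, higher or not called after M1 EV. Each is 300 bases of RefSeq sequence in GRCh38.p14 around the annotated start, read 5′ to 3′ on the gene's strand, and capitals mark the CCAAT box (CCAAT, or ATTGG on the other strand), the sterol regulatory element (TCACNCCAC) and its core (CACCCCAC). MSMO1 (chr4:165327419-165327718, plus strand), MVD (chr16:88663042-88663341, minus strand) and SCD (chr10:100346983-100347282, plus strand) were lower. INSIG1 (chr7:155297628-155297927, plus strand) and ABCA1 (chr9:104928106-104928405, minus strand) were higher, and SREBF2 (chr22:41832855-41833154, plus strand) was not called.
MSMO1: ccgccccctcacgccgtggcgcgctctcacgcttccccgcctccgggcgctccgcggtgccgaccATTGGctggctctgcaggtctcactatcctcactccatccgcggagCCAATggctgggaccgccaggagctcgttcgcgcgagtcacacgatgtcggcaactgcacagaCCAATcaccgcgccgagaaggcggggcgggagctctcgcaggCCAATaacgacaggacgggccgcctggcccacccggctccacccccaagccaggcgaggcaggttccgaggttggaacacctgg
MVD: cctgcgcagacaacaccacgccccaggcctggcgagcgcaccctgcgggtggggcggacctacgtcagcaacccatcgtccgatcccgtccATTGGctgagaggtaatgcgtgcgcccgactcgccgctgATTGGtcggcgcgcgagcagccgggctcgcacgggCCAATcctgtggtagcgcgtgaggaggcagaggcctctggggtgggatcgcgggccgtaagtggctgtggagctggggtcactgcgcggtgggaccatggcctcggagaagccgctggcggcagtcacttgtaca
SCD: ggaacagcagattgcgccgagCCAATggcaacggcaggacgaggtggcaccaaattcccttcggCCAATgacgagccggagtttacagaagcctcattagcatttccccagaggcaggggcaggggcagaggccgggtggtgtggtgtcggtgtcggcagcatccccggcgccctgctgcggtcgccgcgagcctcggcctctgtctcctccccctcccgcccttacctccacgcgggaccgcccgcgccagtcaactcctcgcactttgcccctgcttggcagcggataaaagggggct
INSIG1: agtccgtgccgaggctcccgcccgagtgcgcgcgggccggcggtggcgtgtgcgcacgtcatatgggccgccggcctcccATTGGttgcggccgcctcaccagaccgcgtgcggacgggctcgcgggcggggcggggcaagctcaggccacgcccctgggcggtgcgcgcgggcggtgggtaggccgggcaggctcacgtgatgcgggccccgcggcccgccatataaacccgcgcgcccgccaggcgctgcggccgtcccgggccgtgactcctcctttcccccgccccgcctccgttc
ABCA1: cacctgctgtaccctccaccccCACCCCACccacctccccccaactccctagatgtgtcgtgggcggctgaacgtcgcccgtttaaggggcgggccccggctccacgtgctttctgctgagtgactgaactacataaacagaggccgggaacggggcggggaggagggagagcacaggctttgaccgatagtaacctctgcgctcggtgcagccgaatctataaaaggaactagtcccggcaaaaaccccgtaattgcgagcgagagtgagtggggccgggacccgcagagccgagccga
SREBF2: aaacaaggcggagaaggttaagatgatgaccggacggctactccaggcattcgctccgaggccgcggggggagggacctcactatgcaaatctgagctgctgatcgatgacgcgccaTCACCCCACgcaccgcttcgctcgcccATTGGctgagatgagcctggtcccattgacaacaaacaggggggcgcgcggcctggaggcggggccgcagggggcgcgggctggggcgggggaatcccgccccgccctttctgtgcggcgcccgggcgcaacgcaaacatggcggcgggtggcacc

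MSMO1 held 4 CCAAT boxes, MVD 3, SCD 2, and INSIG1 and SREBF2 1 each, while the ABCA1 window held none. Over the other members that order did not hold. MVK and NSDHL, which were not called, held 5 each, and HMGCS1 and LPIN1, which were lower, held none. RefSeq windows were found for 31 of the 35 members. A CCAAT box on either strand was in 19 of them (61.3%), against 34.6% of all 35116 windows in the table and 34.8% of the windows of tested genes, the closer comparison because every member was tested. Each member was counted by 1 window, whereas the 15130 windows of tested genes outnumber the 13113 genes, so some genes count more than once. Among the members with a window a CCAAT box was in 5 of 7 that were lower after M1 EV (MVD, LSS, MSMO1, SCD and FADS2), in 2 of 5 that were higher (HSD17B7 and INSIG1) and in 12 of 19 that were not called. The sterol regulatory element, in the strict spelling searched, was in SREBF2 alone (3.23%, against 1.13% of all windows and 0.939% of those of tested genes), and there it overlaps the core. The core was in SREBF2 and ABCA1 (6.45%, against 2.79% and 2.6%). The GC box (GGGCGG) was in 28 (90.3%, against 45% and 65.5%) and the E-box (CACGTG) in 5 (16.1%, against 7.26% and 9.42%), INSIG1 and ABCA1 among them. These are letter matches, not measured binding.

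Without vesicles the levels of the members differed widely. Per kilobase of transcript, which could be computed for 33 members, the Ctrl mean was highest for SCD, the desaturase that makes oleic acid, at 418.1 CPM per kilobase and for FDPS, farnesyl diphosphate synthase, at 405.6. DHCR7, the last enzyme of cholesterol synthesis by the Kandutsch-Russell route, followed at 210.9, FDFT1, squalene synthase, at 167.8, FASN, fatty acid synthase, at 153.1 and ACLY, the source of cytosolic acetyl-CoA, at 151.8. The lowest were TM7SF2, a sterol reductase, at 0.877, ABCA1 at 0.827 and MYLIP, a ubiquitin ligase for lipoprotein receptors, at 0.821. The Ctrl libraries of SCD and FDPS overlapped on this scale, as did those of FASN and ACLY and those of the lowest 3 genes. The synthesis enzymes with a transcript length, other than TM7SF2, all lay above the carriers and exporters of the sterol movement group.

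**Figure D1:**
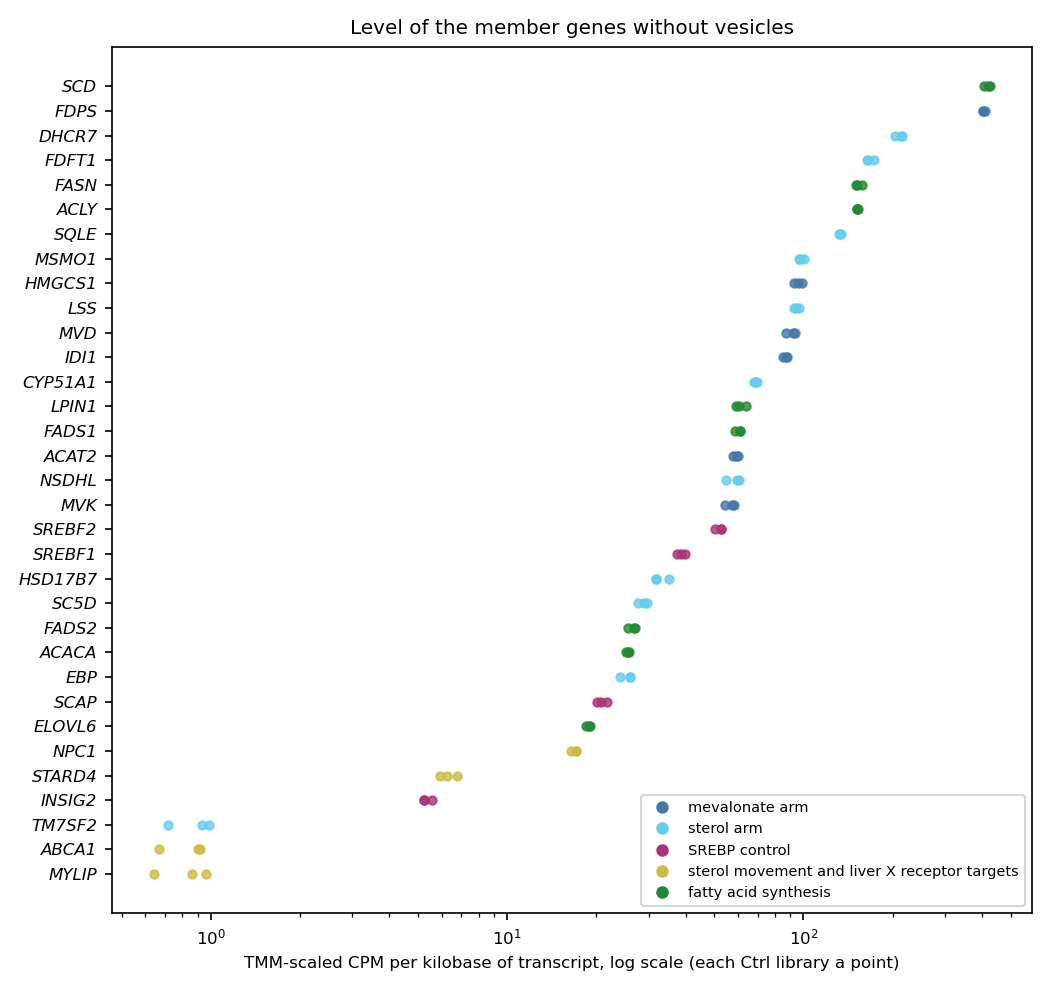
Level of 33 member genes in the 3 Ctrl libraries, as TMM-scaled CPM per kilobase of transcript on a log axis, each point 1 library and the colour the role. SCD and FDPS stand above 400 CPM per kilobase, and TM7SF2, ABCA1 and MYLIP lie below 1.

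M1 EV was compared with Ctrl to ask what vesicles of M1 macrophages changed in the melanoma cells. Of the 35 members, 8 fell and 5 rose (edgeR quasi-likelihood test, Benjamini-Hochberg adjusted p below 0.05 over 13113 genes), and 22 were not called. The genes that fell were FADS2, SCD, MSMO1, MVD, LSS, LPIN1, ACAT2 and HMGCS1, by 7.3% to 19.4%. The genes that rose were ABCA1, to 2.18 times its Ctrl level, NPC1 by 33.8%, and FADS1, HSD17B7 and INSIG1 by 11.4% to 14.9%. The share of members that fell was 22.9%, against 13.7% of all tested genes. The share that rose was 14.3%, against 14.3%, so the number of risen members was at the background. In either direction 37.1% of members were called, against 28.1%. The members were chosen with earlier results of these data known, so these shares describe them and do not test the pathway.

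The 3 libraries of M1 EV were all below those of Ctrl for 12 members and all above for 5, where 20.0% and 19.6% of all tested genes separated in these directions. The median log2 fold change of the 35 was -0.058, against 0.0008 over all tested genes, and 25 estimates were below 0. Their median absolute log2 fold change was 0.0916, smaller than the 0.118 of all tested genes. The members were abundant, with a median of 184.7 CPM against 30.9, and calls were more frequent among abundant genes: below 100 CPM, 11.7% of tested genes rose and 12.5% fell. Among the genes with a mean of at least 100 CPM, a split chosen after the counts were seen, 7 of 21 members fell (33.3%, against 19.1% of 2512 genes) and 2 rose (9.5% against 25.3%). Below 100 CPM, 3 of 14 members rose (21.4%, against 11.7%) and 1 fell (7.1%, against 12.5%). These counts are too small to read as a difference from all tested genes.

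**Figure D2:**
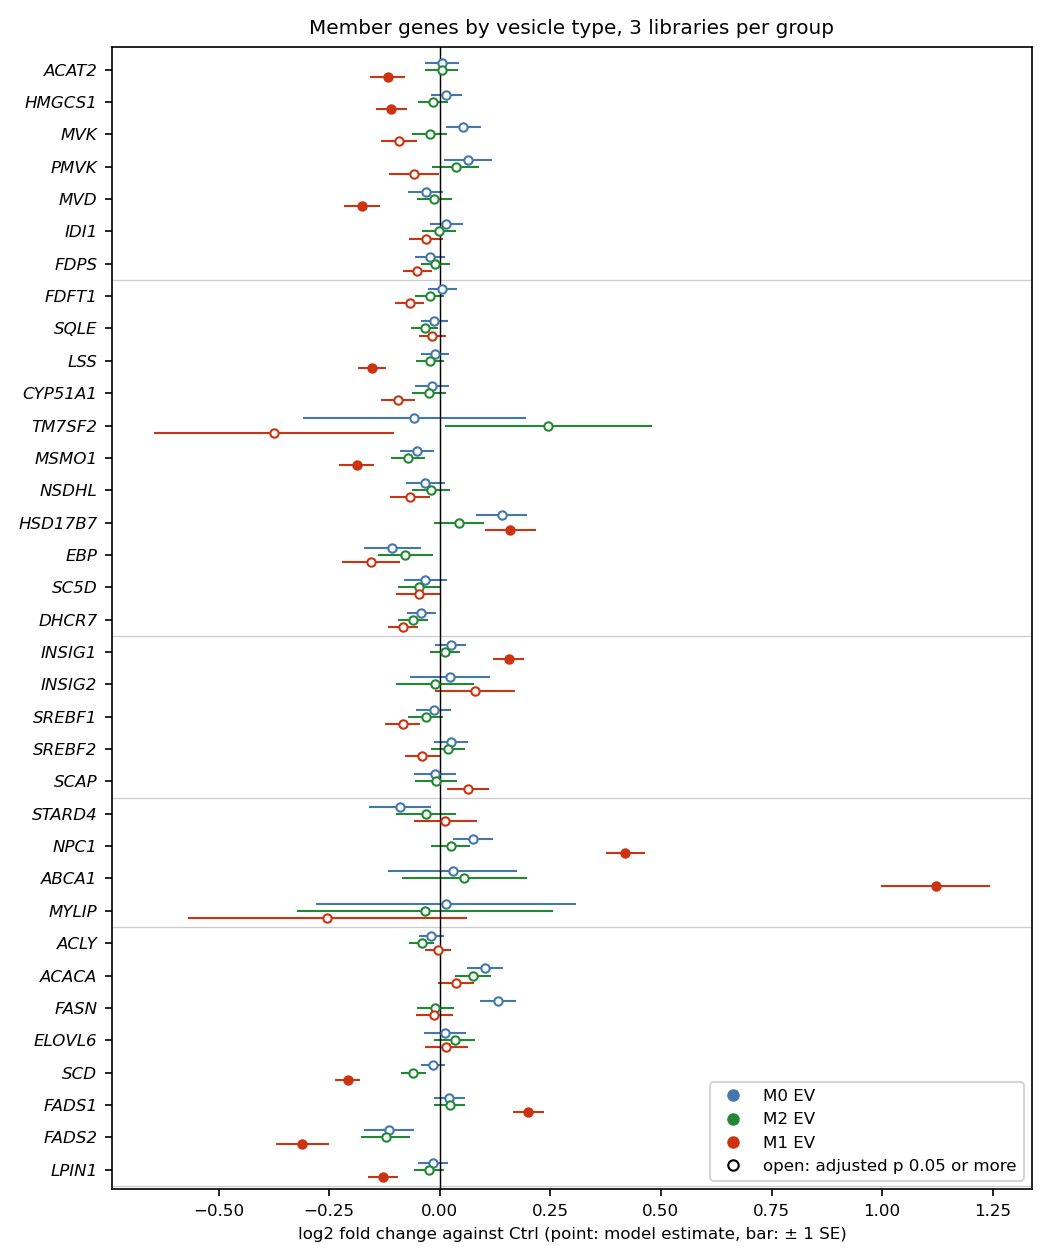
Log2 fold change against Ctrl of the 35 members for M0 EV (blue), M2 EV (green) and M1 EV (red), with the model's standard error as bar, ordered by role with grey lines between roles; filled points passed an adjusted p of 0.05. Only M1 EV has filled points, and ABCA1 and NPC1 lie farthest to the right.

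In the mevalonate arm 3 of 7 genes fell (42.9%, against 13.7% of all tested genes) and none rose. All 7 estimates were below 0 (-0.18 to -0.03), under each of the scalings tried as well. MVD, which decarboxylates mevalonate diphosphate, was at 170.9, 159 and 168.4 CPM in Ctrl and at 148.5, 152.8 and 140 CPM in M1 EV. All M1 EV libraries were below all Ctrl libraries, a log2 fold change of -0.18 ± 0.0407 (SE; edgeR adjusted p = 9.02e-04). HMGCS1, which makes HMG-CoA from acetoacetyl-CoA, was at 335.2, 347.7 and 324.7 CPM in Ctrl and at 315.3, 304 and 314.5 in M1 EV, with the groups apart by less than 10 CPM (-0.11 ± 0.0347, edgeR adjusted p = 0.0153). ACAT2, the thiolase that starts the pathway, was at 184.5, 191.3 and 188.5 CPM in Ctrl and at 177.8, 167.1 and 175.5 in M1 EV, again without overlap (-0.12 ± 0.0391, edgeR adjusted p = 0.0206).

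The other 4 genes of that arm were not called. MVK, mevalonate kinase, lay lower in every M1 EV library (102.7, 104.2 and 105.7 CPM) than in Ctrl (112, 106.6 and 114.2 CPM), with an adjusted p of 0.0968 in edgeR. PMVK, the next kinase, IDI1, the isomerase of isopentenyl diphosphate, and FDPS overlapped between the groups, at -0.06, -0.03 and -0.05 on the log2 scale (95% intervals -0.187 to 0.071, -0.118 to 0.058 and -0.128 to 0.027). Summed over the arm, Ctrl held 1643.1 to 1650.4 CPM and M1 EV 1530.6 to 1595.6 CPM. ACAT2 lost its call without Ctrl replicate 2 (adjusted p = 0.0803), Ctrl replicate 3 (0.0563) or M1 EV replicate 2 (0.128) and with DESeq2 (0.0539), and HMGCS1 without Ctrl replicate 2 (0.113) or M1 EV replicate 2 (0.0781). ACAT2 also shares 615 bases of its span with TCP1 and 237 with SOD2, which rose by 0.19 and 1.77 on the log2 scale, and the sources used here do not say if reads were counted by strand.

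In the sterol arm 2 of 11 genes fell (18.2%, against 13.7% of all tested genes) and 1 rose (9.1%, against 14.3%). Of the 11 estimates, 10 were below 0. MSMO1, the sterol methyl oxidase, was at 220.1, 228 and 219.5 CPM in Ctrl and at 200.9, 184.1 and 201.4 CPM in M1 EV. LSS, lanosterol synthase, which closes the sterol rings, was at 425, 408.1 and 414.2 CPM in Ctrl and at 369.2, 380.1 and 371.8 CPM in M1 EV. For both genes every M1 EV library was below every Ctrl library, with log2 fold changes of -0.19 ± 0.0393 (edgeR adjusted p = 2.72e-04) and -0.15 ± 0.0318 (edgeR adjusted p = 2.42e-04). HSD17B7, which reduces the keto group left by demethylation, went the other way, from 37.78, 41.71 and 37.93 CPM in Ctrl to 42.13, 45.88 and 42.75 in M1 EV. Its rise of 0.16 ± 0.0577 (edgeR adjusted p = 0.0349) lost the call in 7 of 15 alternatives, among them DESeq2 (0.141) and leaving out Ctrl replicate 1 (0.125), Ctrl replicate 3 (0.139) or M1 EV replicate 2 (0.183). HSD17B7 has 2 named pseudogenes, and reads shared with them were not resolved.

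The 8 sterol arm genes that were not called ran from -0.37 to -0.02. SQLE, squalene epoxidase, a rate-limiting oxygenase, was at 394, 395.4 and 390 CPM in Ctrl and at 389.3, 385.7 and 390.6 in M1 EV. Its groups overlapped, and the 95% interval of the difference was -0.087 to 0.053 on the log2 scale. CYP51A1, lanosterol demethylase, FDFT1 and EBP, the sterol isomerase, lay lower in every M1 EV library without passing the test (-0.09, -0.07 and -0.16; edgeR adjusted p = 0.0661, 0.13 and 0.0719). DHCR7 overlapped (-0.08, adjusted p = 0.0608). NSDHL and SC5D, which act between MSMO1 and DHCR7, stood at -0.07 and -0.05, and TM7SF2, at 1.03 to 1.70 CPM over both groups, at -0.37 ± 0.272. Summed over the 11 genes, Ctrl held 2403.8 to 2447 CPM and M1 EV 2276.9 to 2298.2. M2 EV, at 2353.6 to 2393.2 CPM, also lay below Ctrl, and M0 EV, at 2375.4 to 2423.2, overlapped it. The calls that DHCR7 (4 alternatives), CYP51A1 and EBP (1 each) gained under other settings were all in the downward direction.

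Of the 5 genes that control SREBPs, INSIG1 rose (20.0%, against 14.3% of all tested genes) and none fell. INSIG1, the retention protein that is itself an SREBP target, was at 261.3, 266.9 and 267.6 CPM in Ctrl and at 294.3, 306.1 and 286.2 CPM in M1 EV. Every M1 EV library was above every Ctrl library, a log2 fold change of 0.16 ± 0.0346 (edgeR adjusted p = 5.54e-04). All 8 of its transcripts above 1 CPM had ratios of M1 EV to Ctrl means within 0.146 to 0.157 on the log2 scale. The transcripts of a gene appear to share reads and are not independent.

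SREBF1, which encodes the SREBP of fatty acid genes, was at 169.9, 163.6 and 159 CPM in Ctrl and at 154, 160.3 and 149.9 in M1 EV. The groups overlapped by 1 library pair, with a log2 fold change of -0.08 ± 0.0401 (edgeR adjusted p = 0.119, 95% interval -0.177 to 0.008). The unadjusted edgeR p was 0.0427. The interval is wider than that test implies, since it used the residual degrees of freedom alone. SREBF2, which encodes the SREBP of cholesterol genes, was at 275.9, 264 and 276.5 CPM in Ctrl and at 251.1, 286.5 and 256.5 in M1 EV. Its M1 EV replicate 2 was above all Ctrl libraries and the other two below, so that SREBF2 stood at -0.04 ± 0.0389 (adjusted p = 0.505), and without that library it was called lower (edgeR adjusted p = 0.0484). SCAP (0.06 ± 0.0477) and INSIG2 (0.08 ± 0.0906), the less abundant INSIG, overlapped and were not called.

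Of the 4 genes of sterol movement and liver X receptor targets, 2 rose and none fell, where 14.3% and 13.7% of all tested genes did so. A count over 4 genes is too small to read as a response of the group. ABCA1, the exporter that loads cholesterol onto apolipoprotein A-I, was at 6.997, 9.452 and 9.594 CPM in Ctrl and at 15.49, 19.98 and 21.18 CPM in M1 EV. Every M1 EV library was well above every Ctrl library, with means of 8.68 ± 1.46 and 18.9 ± 3.00 CPM (SD, n = 3). The log2 fold change was 1.12 ± 0.123 (95% interval 0.837 to 1.406, edgeR adjusted p = 2.36e-09), the largest of the 35. NPC1, which passes cholesterol out of late endosomes and lysosomes, was at 88.06, 87.84 and 84.92 CPM in Ctrl and at 115.7, 120.2 and 112.6 CPM in M1 EV. The groups were far apart against a spread of 1.75 and 3.85 CPM (SD, n = 3), with a log2 fold change of 0.42 ± 0.0436 (edgeR adjusted p = 6.16e-10).

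STARD4, a cytosolic sterol carrier, overlapped between the groups (0.01 ± 0.0707). MYLIP, like ABCA1 a target of liver X receptors, was at 1.60, 1.44 and 1.07 CPM in Ctrl and at 1.03, 1.19 and 1.18 in M1 EV, so its direction could not be read at this depth (-0.25 ± 0.315). ABCA1 and NPC1 kept their calls in all 15 alternatives (log2 fold changes 0.995 to 1.236 and 0.394 to 0.443). NPC1 shares 25639 bases of its span with RMC1, which stood at 26.5 CPM over all libraries and rose by 0.20 on the log2 scale.

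Of the 8 genes of fatty acid synthesis, 3 fell (37.5%, against 13.7% of all tested genes) and 1 rose (12.5%, against 14.3%). SCD, the most abundant member by counts, was at 2254, 2289 and 2183 CPM in Ctrl and at 1894, 1986 and 1942 CPM in M1 EV. No M1 EV library reached the lowest Ctrl library, and the log2 fold change was -0.21 ± 0.0279 (edgeR adjusted p = 1.78e-07), a fall of 13.4%. FADS2, the first desaturase on the way to polyunsaturated fatty acids, was at 45.08, 43.25 and 45.48 CPM in Ctrl and at 36.14, 36.48 and 35.3 CPM in M1 EV. It had the largest fall of the called members, -0.31 ± 0.0597 (edgeR adjusted p = 8.59e-05), without overlap. FADS1, the later desaturase of the same route, rose instead, from 275.4, 275.6 and 264.9 CPM in Ctrl to 296.1, 321.8 and 318.4 in M1 EV (0.20 ± 0.0354, edgeR adjusted p = 2.69e-05).

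FADS1 and FADS2 lie side by side on chromosome 11, at 61799627 to 61817003 and 61816203 to 61867354 in GRCh38.p14, and their spans overlap by 801 bases. LPIN1, a phosphatidate phosphatase of glycerolipid synthesis, was at 365.1, 343.9 and 336.9 CPM in Ctrl and at 309.9, 330 and 316.9 in M1 EV, without overlap (-0.13 ± 0.0342, edgeR adjusted p = 0.00405). Without Ctrl replicate 1, its highest library, LPIN1 had an adjusted p of 0.0779. Its 14 transcripts above 1 CPM were within -0.129 to -0.125.

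The enzymes that make palmitate were not called. FASN was at 1354, 1295 and 1286 CPM in Ctrl and at 1261, 1409 and 1231 CPM in M1 EV, with the M1 EV libraries on both sides of Ctrl (95% interval -0.106 to 0.083). ACLY was at 655.7, 663.7 and 656.9 CPM in Ctrl and at 647.8, 677.1 and 645.6 in M1 EV (95% interval -0.071 to 0.063). ACACA, acetyl-CoA carboxylase, and ELOVL6, which lengthens palmitate, stood at 0.04 ± 0.0408 and 0.02 ± 0.0487. Summed over all 35 members, Ctrl held 10091 to 10287 CPM and M1 EV 9571 to 9934.1. M2 EV, at 9998.2 to 10018 CPM, also lay below Ctrl, and M0 EV, at 10093 to 10408, overlapped it. With SCD left out, the Ctrl and M1 EV sums overlapped, at 7902.2 to 8033.1 and 7629.5 to 7948.1 CPM. M2 EV, at 7837 to 7875.2 CPM, was still below Ctrl, and M0 EV held 7928.9 to 8125.

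**Figure D3:**
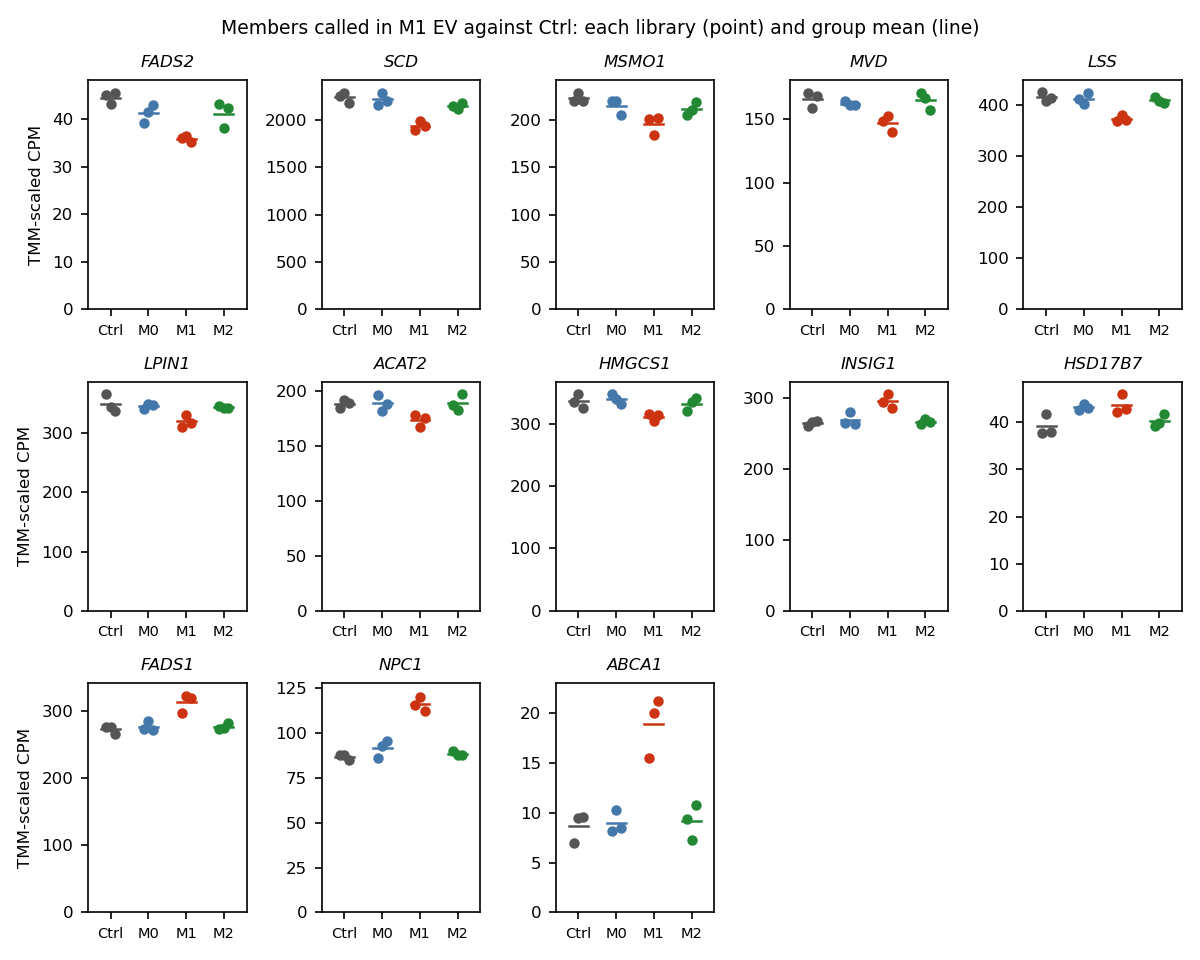
Members called in M1 EV against Ctrl, ordered from FADS2, the largest fall, to ABCA1, the largest rise, with TMM-scaled CPM of each library as a point and the group mean as a line, every axis from 0. The M1 EV libraries of ABCA1 (15.49 to 21.18 CPM) and NPC1 (112.6 to 120.2 CPM) lie above all others, and those of SCD (1894 to 1986 CPM) below.

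Vesicles of M0 macrophages gave no called member. Of the 35, 0 were called in M0 EV against Ctrl by edgeR, DESeq2 or limma-voom, against 0.0153% of all tested genes, and 3 had an unadjusted p below 0.05, against 5.07% of all. ABCA1 was at 8.14, 10.24 and 8.504 CPM (log2 fold change 0.03 ± 0.146), NPC1 at 86.29, 93.12 and 95.59 (0.08 ± 0.0447) and SCD at 2165, 2289 and 2202 (-0.02 ± 0.0278), all overlapping with Ctrl. HSD17B7 was above Ctrl in every M0 EV library (42.49, 43.93 and 42.88 CPM, edgeR adjusted p = 0.868) and FADS2 below (39.24, 41.64 and 42.97 CPM, adjusted p = 0.965). ACLY also lay below Ctrl in every M0 EV library (-0.02 ± 0.0291, edgeR adjusted p = 0.999). FASN was at 1319, 1454 and 1539 CPM, where replicate 1 lay within Ctrl and the other two above it (0.13 ± 0.0409, adjusted p = 0.542). Without M0 EV replicate 1, FASN and ACACA were called higher (edgeR adjusted p = 0.00172 and 0.0216), and FASN also with no low-count filter (9.68e-04).

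The other genes that M1 EV changed lay within or close to their Ctrl range after M0 EV. In the mevalonate arm MVD was at 164.2, 161.8 and 161.6 CPM, HMGCS1 at 347.6, 338.9 and 331, and ACAT2 at 196.3, 181.4 and 187.8. In the sterol arm MSMO1 was at 219.9, 219.6 and 204.8 CPM and LSS at 411.2, 402.5 and 423.6. All 5 overlapped with Ctrl. INSIG1 was at 265.7, 280.3 and 264.2 CPM, FADS1 at 272.2, 284.7 and 271.3, and LPIN1 at 339.9, 348.1 and 346.9, also with overlap.

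Vesicles of M2 macrophages likewise gave no called member. In M2 EV against Ctrl 0 of 35 were called by edgeR, DESeq2 or limma-voom, against 0.0458% of all tested genes, and 2 had an unadjusted p below 0.05, against 6.21% of all. These were SCD, at 2148, 2123 and 2181 CPM, and FADS2, at 43.16, 38.11 and 42.42 CPM. Both lay below Ctrl in every library (-0.06 ± 0.0278 and -0.12 ± 0.0558, edgeR adjusted p = 0.782 and 0.78). ABCA1, at 9.374, 7.289 and 10.74 CPM, NPC1, at 90.23, 87.61 and 87.73, and INSIG1, at 264, 271.3 and 266.6, overlapped with Ctrl.

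MSMO1, at 205.3, 210.5 and 218.6 CPM after M2 EV, lay just below its Ctrl libraries (-0.07 ± 0.0383, edgeR adjusted p = 0.845). The other mevalonate and sterol genes that M1 EV changed overlapped with Ctrl, with MVD at 171, 166.9 and 157.2 CPM, HMGCS1 at 320.1, 334.2 and 341.2, ACAT2 at 186.5, 182.7 and 196.8, LSS at 416.1, 408 and 404.3 and HSD17B7 at 39.25, 39.71 and 41.81. So did FADS1, at 273.2, 273.9 and 280.8 CPM, and LPIN1, at 345.4, 342.4 and 340.9. FASN, at 1308, 1348 and 1252 CPM, was on both sides of Ctrl. SQLE, DHCR7 and ACLY also lay below Ctrl in every M2 EV library (-0.03 ± 0.0300, -0.06 ± 0.0332 and -0.04 ± 0.0291), uncalled. That made 6 members below Ctrl in every M2 EV library, and 24 of the 35 estimates were below 0 (median -0.0156, against 0.0013 over all tested genes). The share of all tested genes separated in this way is not given here.

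The 3 comparisons between vesicle types asked how far the responses differed directly. They share the M1 EV libraries, or the M0 EV or M2 EV libraries, with each other. In M1 EV against M0 EV, 4 members were higher (11.4%, against 12.5% of all tested genes) and 10 were lower (28.6%, against 12.8%). In M1 EV against M2 EV, 4 were higher (11.4%, against 12.6%) and 8 were lower (22.9%, against 12.0%). ABCA1, NPC1, FADS1 and INSIG1 were the higher genes in each, and ACAT2, HMGCS1, MVD, LSS, MSMO1, SCD, FADS2 and LPIN1 were lower in each. Against M2 EV, HMGCS1 lost its call in 7 of 15 alternatives, including without M2 EV replicate 3 (0.198) or M1 EV replicate 2 (0.17). MSMO1, FADS2 and LPIN1 lost theirs in 4 each, with adjusted p up to 0.238 (without M1 EV replicate 2), 0.0772 (DESeq2) and 0.124 (without M1 EV replicate 1), and ACAT2 without M1 EV replicate 2 (0.118) or M2 EV replicate 3 (0.142). Against M0 EV, FADS2, LPIN1 and ACAT2 lost theirs in 3 of 16 each, with adjusted p up to 0.0862 (without M0 EV replicate 3), 0.0874 (without M1 EV replicate 1) and 0.135 (without M0 EV replicate 1), MVD without M1 EV replicate 3 (0.08) and MSMO1 without M1 EV replicate 2 (0.117).

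ABCA1 was higher in M1 EV by 1.09 ± 0.120 than in M0 EV and by 1.07 ± 0.116 than in M2 EV on the log2 scale (edgeR adjusted p = 2.68e-09 and 2.20e-09). NPC1 was higher by 0.34 ± 0.0427 and 0.39 ± 0.0423 (4.03e-08 and 1.54e-09), and INSIG1 by 0.13 ± 0.0344 and 0.14 ± 0.0341 (0.00367 and 0.00135). SCD was lower, with -0.19 ± 0.0279 and -0.15 ± 0.0278 (edgeR adjusted p = 9.21e-07 and 7.78e-05), and LSS with -0.14 ± 0.0317 and -0.13 ± 0.0316 (6.97e-04 and 0.00164). HSD17B7 was not called in either (0.02 ± 0.0556 and 0.115 ± 0.0551), and its M1 EV and M0 EV libraries overlapped.

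MVK was at 114.6, 119.4 and 112 CPM in M0 EV and at 109.4, 110.7 and 107.8 in M2 EV, each library above those of M1 EV. MVK (-0.14 ± 0.0406, edgeR adjusted p = 0.00669) and FASN (-0.14 ± 0.0409, adjusted p = 0.00746) were lower in M1 EV than in M0 EV and were not called against M2 EV (-0.07 ± 0.0403 and -0.0023 ± 0.0409). MVK lost that call without M0 EV replicate 2 (0.0589). The FASN groups overlapped, and its call was lost without M0 EV replicate 3 (0.145) or M1 EV replicate 3 (0.0933), with DESeq2 (0.149) and with M0 EV replicates 2 and 3 summed (0.0603). In M2 EV against M0 EV 0 members were called by edgeR, DESeq2 or limma-voom, against 0.00% of all tested genes, and 1 had an unadjusted p below 0.05, against 3.41% of all. That member was FASN (-0.14 ± 0.0407), called lower without M0 EV replicate 1 (adjusted p = 0.00187).

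Other genes of the pathways, from 7 lists, moved both ways in M1 EV against Ctrl. Their counts are to be read against the 14.3% of all tested genes that rose and the 13.7% that fell, and their medians against 0.0008. These lists, too, were chosen with earlier results of these data known. In the list of sterol uptake, storage and transport, 2 of 14 tested genes rose (14.3%, at the background) and 4 fell (28.6%), with a median log2 fold change of -0.0042. NPC2, the soluble lysosomal protein that hands cholesterol to NPC1, fell from 127.4 ± 2.00 to 91.1 ± 1.35 CPM (SD over 3 libraries), or by -0.49 ± 0.043 on the log2 scale (edgeR adjusted p = 9.66e-12), while NPC1 rose. LIPA, the acid lipase that frees cholesterol from its esters in lysosomes, fell from 125.5 ± 3.95 to 103.4 ± 2.91 CPM (-0.28 ± 0.0426, adjusted p = 2.15e-06). SCARB1, a receptor for high-density lipoprotein, rose from 91.7 ± 4.18 to 119.9 ± 0.555 CPM (0.39 ± 0.045, adjusted p = 8.35e-09). These 3 genes were called in the same directions between M1 EV and each of the other vesicle types, NPC2 by -0.39 and -0.37, LIPA by -0.24 and -0.24, and SCARB1 by 0.34 and 0.36 against M0 EV and M2 EV.

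Among the liver X receptors, their partners and other targets, 3 of 8 tested genes fell (37.5%) and none rose, with a median of -0.13. They were RXRA, the partner receptor (-0.23 ± 0.0511), the corepressor NCOR1 (-0.17 ± 0.0447) and the coactivator NCOA1 (-0.16 ± 0.0636). ABCG1, a second exporter, was at 0 in every library. In the list of SREBP processing and degradation 1 of 14 rose and 1 fell (7.1% each, below the background; median -0.0012), ERLIN1, an endoplasmic reticulum protein (0.13 ± 0.0449), and SEC23A, a coat protein of vesicles that leave the endoplasmic reticulum (-0.19 ± 0.0351). In the isoprenoid branch, which also draws on FDPS, 1 of 12 fell (8.3%, below the background; median 0.05) and none rose. It was COQ2 of ubiquinone synthesis (-0.29 ± 0.062).

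In the list of fatty acid supply, elongation and activation, 2 of 22 tested genes rose (9.1%) and 5 fell (22.7%), with a median of -0.03. ACSS2, which makes acetyl-CoA from acetate, fell from 88.9 ± 2.14 to 66.8 ± 1.46 CPM (SD, n = 3; -0.41 ± 0.0442, edgeR adjusted p = 1.18e-09). SCD5, the second human stearoyl-CoA desaturase, fell from 102.4 ± 1.247 to 79.4 ± 4.098 CPM (-0.37 ± 0.0453, adjusted p = 3.21e-08), and ACSL1, an acyl-CoA synthetase, rose by 0.27 ± 0.0572. In glycerolipid synthesis and droplets, 2 of 17 rose (11.8%) and 5 fell (29.4%), with a median of -0.0056. GPAM, the mitochondrial enzyme of the first acylation of glycerol phosphate, rose from 35.4 ± 1.86 to 49.5 ± 2.48 CPM (0.49 ± 0.0578, adjusted p = 1.18e-08), whereas PCYT2 of phosphatidylethanolamine synthesis and LPIN2, a relative of LPIN1, fell by 0.28 and 0.30 on the log2 scale.

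In fatty acid oxidation, 6 of 18 tested genes fell (33.3%), none rose, and 17 estimates were below 0, with a median of -0.098 against 0.0008 over all tested genes. PPARA, a receptor that raises oxidation genes, fell by 0.47, DECR1, a reductase for unsaturated acyl-CoA, by 0.25, and PPARG, the receptor of fat cell formation, by 0.37 on the log2 scale. PPARA and PPARG were scarce, at 7.85 to 14.4 and 11.3 to 16.1 CPM over the 2 groups.

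**Figure D4:**
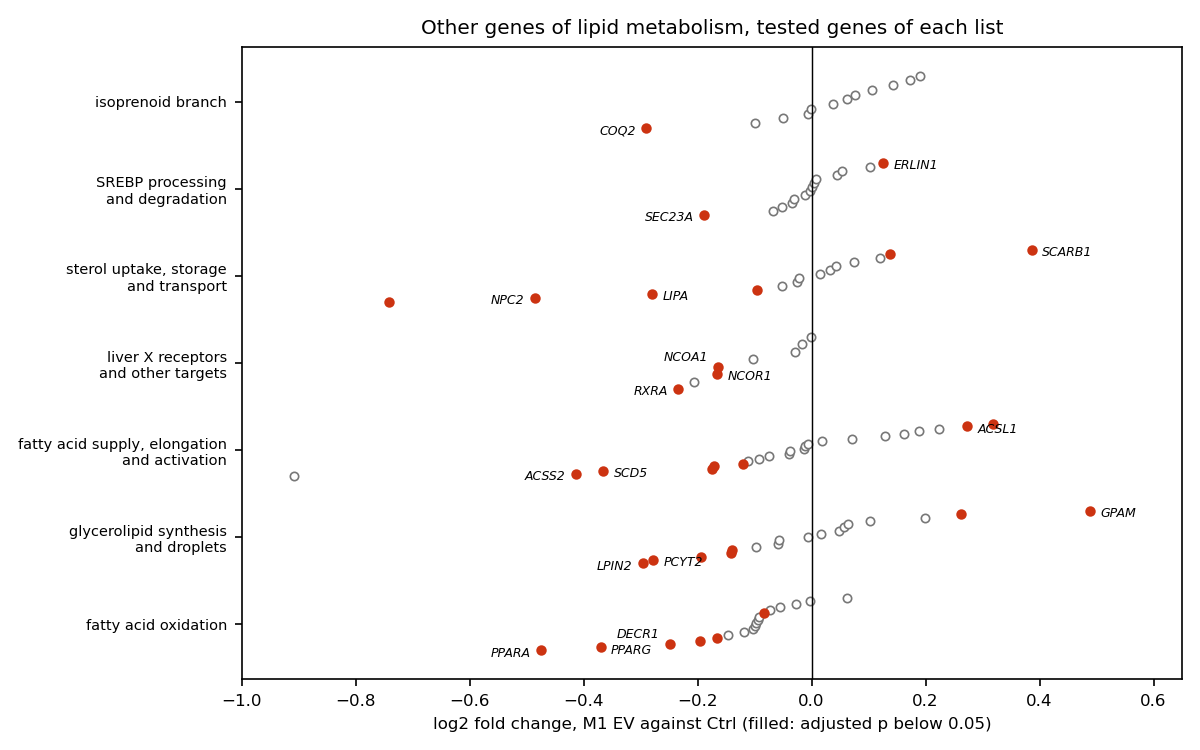
Log2 fold change in M1 EV against Ctrl of the tested genes of 7 further lists, each point 1 gene, filled where the adjusted p was below 0.05, with up to 3 called genes of smallest adjusted p named per list. NPC2 (-0.49) and SCARB1 (0.39) lie on opposite sides in the same list, and the filled points of fatty acid oxidation are all below 0.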

How the data were processed

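Per the labels, total RNA of the 12 libraries went into directional poly(A) libraries read on a NovaSeq X Plus. The authors deposited expected counts (expected_counts) for 70507 RefSeq transcripts, with no normalization and in steps of 0.5. The submitters' processing notes name STAR 2.6.1b, HOMER 4.10 and hg38 without roles. M0 EV replicate 1 was matched to a column spelled without a digit of MV3, because every other library had a column of its own.

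Transcripts were named from RefSeq GRCh38.p14 (69824) or GENCODE (333). The 350 unnamed held 0.061% to 0.064% of counts and were left out. Each gene was its transcript with the most counts, rounded to whole counts, since isoforms appear to share reads. Counts were fitted with edgeR 4.0.16 in R 4.3.3 (default filter, 13113 genes, TMM factors 0.993 to 1.007, quasi-likelihood test over all 12 libraries, 1 term per group, biological coefficient of variation 2.59% with 8 residual degrees of freedom). P-values were 2-sided and Benjamini-Hochberg adjusted over all tested genes in each of 6 comparisons, with 0.05 as the threshold. The 95% intervals were built from the estimate, its standard error and the residual degrees of freedom alone. They are wider than the quasi-likelihood test implies, so an interval on both sides of no change can go with an unadjusted p below 0.05. The test was tried on simulated data. CPM values are TMM-scaled.

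The members and lists were chosen with earlier results of these data known. Members called in any comparison are given in every library, and from each other list up to 3 called genes with the smallest adjusted p in M1 EV against Ctrl are named. Motifs were searched on both strands of the RefSeq windows. Alternatives were DESeq2 1.42.0, limma-voom (limma 3.58.1), other scalings, filters and transcript summaries, only the 2 groups compared, a replicate block and leaving out each library. M0 EV replicates 2 and 3 were also summed, which was chosen after the data were seen, because they differed by little more than counting noise (a chi-square of 1.04 per degree of freedom, against 1.24 to 2.33 for the other pairs).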

Additional observations from a re-analysis of the deposited data

How the results depend on the processing

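Each member was recomputed under 15 or 16 alternatives per comparison. In M1 EV against Ctrl, 504 of 525 checks kept the call or its absence, 14 lost a call, 7 gained one and 0 reversed a called direction. MVD, LSS, MSMO1, INSIG1, NPC1, ABCA1, SCD, FADS1 and FADS2 kept theirs in all 15. In M0 EV against Ctrl, 1 member was higher with no low-count filter, and leaving out 1 library gave 0 to 2. In M2 EV against M0 EV, 1 was lower with no low-count filter, and leaving out 1 library gave 0 to 1. In M1 EV against M2 EV, 5 were lower with DESeq2, and leaving out 1 library gave 4 (without M2 EV replicate 3) to 6, below the 8 of all libraries each time. The cause was not tested. Over all genes, M1 EV against M2 EV gave 3229 calls in edgeR and 2098 in DESeq2. M0 EV against Ctrl gave 2 calls, 0 in DESeq2, 87 without M0 EV replicate 1 and 53 with no low-count filter. M2 EV against Ctrl gave 6, with 1, 31 and 62 in DESeq2, with no low-count filter and with the 6 libraries of the groups alone. No scaling moved the median of all genes by over 0.1 on the log2 scale.

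Same-numbered libraries of different groups did not deviate together (18 correlations, -0.048 to 0.090, none over 0.1, and a library correlated best with its own number in 15 of 36 cases). With the replicate block 5 members rose and 8 fell in M1 EV against Ctrl, as without it, and the count over all genes went from 3683 to 3757. In M0 EV against Ctrl the block gave 20 calls over all genes and 0 among the members, and no member count of another comparison changed.

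Genes near 1 CPM such as TM7SF2 and MYLIP had standard errors of 0.27 and 0.32 on the log2 scale, so that changes as large as most of those called in other members were not detectable in them.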
